A study of Mus musculus with 16 samples.

Results

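The genes described here encode secreted proteins of the TGF-beta superfamily and their antagonists: the TGF-beta ligands Tgfb1, Tgfb2 and Tgfb3, the activin and inhibin subunits Inhba and Inhbb, the bone morphogenetic proteins Bmp2, Bmp4 and Bmp6, and the antagonists gremlin 1 (Grem1) and follistatin (Fst). Members were chosen by name, as every probe set whose platform symbol is 1 of these 10 genes. They have 17 probe sets of 45037 on the array, and 10 of the 18193 genes that a single symbol names. Tgfb2 has 4 probe sets, Tgfb1, Inhba, Inhbb and Fst have 2 each, and the other genes have 1 each. Of the 17, 16 lay above the lowest 30% of probe sets by mean signal, and the exception was an Inhba probe set.

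Female C57BL/6 mice were ovariectomized, and RNA of the left femur, taken from its distal 5 mm, was hybridized to Affymetrix arrays, 1 array for each of 16 mice. The mice formed 4 groups of 4: mice lacking estrogen receptor alpha in osteoclasts that received estrogen, the same knockouts under vehicle, wild-type mice that received estrogen, and wild-type mice under vehicle. Bone was taken 4 hours after treatment. All 16 mice share the ovariectomy, so no mouse had its own ovarian estrogen. The labels of the knockouts without estrogen name no vehicle, which was taken from the series' design text. The estrogen compound, its dose, the age of the mice and the promoter that drives the deletion were not found among the labels and texts used here. In the series' title the question concerns osteoclastic estrogen receptor alpha and the protection of bone by estrogen. Replicates are separate mice.

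Ligands of this superfamily are dimers that bring together type I and type II receptor kinases, which phosphorylate Smad proteins that then enter the nucleus and regulate genes. TGF-betas and activins signal mainly through Smad2 and Smad3, and BMPs through Smad1, Smad5 and Smad9. TGF-betas are secreted in a latent form and stored in bone matrix, where osteoclasts release and activate them during resorption. BMPs drive osteoblast differentiation. Follistatin binds activins and some BMPs, gremlin 1 binds BMP2 and BMP4, and both keep their ligands from the receptors.

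The deleted gene, Esr1, was measured by 3 probe sets in whole bone, while the design places the deletion in osteoclasts. Deletion in other cells was not tested. On the brightest, its signal was 409 to 753 in estrogen-treated knockouts, 580 to 723 in vehicle knockouts, 434 to 664 in estrogen-treated wild types and 792 to 1100.2 in vehicle wild types. Vehicle knockouts were lower than vehicle wild types by a log2 difference of −0.55, with an adjusted p of 0.993, and the position of the probes relative to the deleted part is not known here. The 2% trimmed mean signal was 500.0 on every array. Each group mean rests on 4 arrays, and the spread was estimated over the 4 groups together. A set of 3 arrays (estrogen-treated knockout replicate 1, estrogen-treated wild-type replicate 2 and vehicle wild-type replicate 2) stood apart: their spike-in control signal was 33096 to 59091, against 9350 to 17130 on the other 13, and their Actb 3'/5' signal ratio was 2.07 to 3.53, against 1.17 to 1.50 on those. Skeletal muscle markers (8 of 8 with a probe set) separated replicates 3 and 4, with a summed signal of 2843 to 27706, from replicates 1 and 2, with 62112 to 514475. The highest sum was that of estrogen-treated knockout replicate 1. In whole bone, fewer cells of a type and less RNA per cell cannot be told apart. Defining markers of osteoclasts, 8 of 8 with a probe set, and of osteoblasts and osteocytes, 7 of 8, were present in the femurs, with mean signals of 260 or more, and none was at 0.

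Estrogen was compared with vehicle in each genotype, to ask which of these signals moved in bone and whether the receptor in osteoclasts mattered. None of the 17 probe sets passed an adjusted p of 0.05 by limma in either genotype, in the average over genotypes or in the difference between genotypes. Among all probe sets 0% passed in each genotype and in the difference, and 0.00222% in the average. In the knockouts, 14 of the 17 were higher after estrogen and 3 were lower, with a median log2 difference of 0.32, against 0.02 over all probe sets. In the wild types, 4 were higher and 13 lower, with a median of −0.23, against −0.02 over all probe sets. Of the 17, 12 (70.6%) were higher after estrogen in the knockouts and lower in the wild types, a pattern that 28.9% of all probe sets had. Both shares are from all 4 replicates. Within replicates 3 and 4 alone, the 17 were divided 9 higher to 8 lower in the knockouts and 5 to 12 in the wild types. Within replicates 1 and 2 the splits were 14 to 3 and 5 to 12. These 17 share genes, and 3 of the 4 Tgfb2 probe sets list the same source transcript, so they are not separate observations.

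At an unadjusted p under 0.05, the knockouts had 3 of the 17, all higher after estrogen, where 3.73% of all probe sets passed and 1.60% did so upwards. The wild types had 0 of the 17, against 6.14%, in a fit without the replicate sets. The average over genotypes gave 1, against 4.65%, and the difference between genotypes 3, against 5.34%. In the knockouts 2 members separated the groups without overlap, both higher after estrogen, against 3.50% of all probe sets (1.47% higher). For the wild types there was 1, lower after estrogen, against 3.13% (1.71% lower). The genes behind these counts are Tgfb3, Inhbb and Bmp2.

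These counts moved with the arrays and with the replicate sets. Within replicates 1 and 2 alone, the knockouts had 7 and the difference 6, against 3386 and 5162 of all 45037 probe sets. Within replicates 3 and 4 alone, they had 1 and 1, against 1381 and 1790. The wild types had 2 within each set, against 3265 within replicates 1 and 2 and 3839 within replicates 3 and 4. With the set as a term there were 4 in the knockouts and 2 in the wild types (Bmp2 and the dimmer Tgfb1 probe set, both lower). The average then had 3 and the difference 5. Over all 45037 probe sets, 2427, 3812, 2767 and 3568 passed with the set term, against 1678, 2766, 2096 and 2405 without it. With the replicate number as a block the members had 4, 1, 3 and 4, where 2275, 3634, 2669 and 3357 of all probe sets passed. Array weights gave 4 in the wild types and 7 in the difference, where 3828 and 2889 of all probe sets passed. Leaving out the 3 arrays that stood apart gave 3 and 5, where 2581 and 1603 of all probe sets did. The knockout count was 6 without estrogen-treated knockout replicate 4 and 2 to 4 without any other single array. The wild-type count was 2 without estrogen-treated wild-type replicate 2 or 4, 1 without vehicle wild-type replicate 2 or 3 or estrogen-treated knockout replicate 1, 3 or 4, and 0 without any other. For the difference it was 6 without estrogen-treated knockout replicate 4, 5 without estrogen-treated wild-type replicate 4, and 3 or 4 without any other. For the average it was 4 without vehicle knockout replicate 3, and 3 without vehicle wild-type replicate 3 or estrogen-treated wild-type replicate 2 or 4. It was 2 without estrogen-treated wild-type replicate 1 or estrogen-treated knockout replicate 1, 3 or 4, and 1 without any other. The counts over all probe sets moved too. Without estrogen-treated knockout replicate 4, 2215 of 45037 passed in the knockouts and 3189 in the difference.

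Skeletal muscle and adipocyte markers had medians of the same signs as the members, and their part in the results was not tested. Other lists differed: medians in knockouts and wild types were −0.50 and −0.57 for cartilage, and −0.64 and −0.55 for B lymphocytes. They were 0.11 and 0.44 for the neutrophil lineage, and 0.10 and −0.01 for endothelium. In the knockouts, all 8 muscle markers were higher after estrogen, with a median log2 difference of 1.18 and 0 passing the test, and their summed signal was 2843 to 514475 in estrogen-treated knockouts and 5489 to 115903 in vehicle knockouts. In the wild types 7 of the 8 were lower, with a median of −0.88, and the sums were 7130 to 156732 in estrogen-treated wild types and 12176 to 357745 in vehicle wild types. Adipocyte markers (6 of 8 with a probe set) had medians of 0.42 in the knockouts and −0.68 in the wild types, and no marker of either list was at 0. Within replicates 3 and 4 alone, the members were divided 9 higher to 8 lower in the knockouts, with a median of 0.03, and within replicates 1 and 2 they were divided 14 to 3, with a median of 0.62. Without estrogen-treated knockout replicate 1 the split in the knockouts was 13 to 4, with a median of 0.23, and without vehicle knockout replicate 3 it was 12 to 5, with a median of 0.52. For the wild types the split was 7 higher to 10 lower without vehicle wild-type replicate 2, with a median of −0.14, and 5 to 12 without estrogen-treated wild-type replicate 3, with a median of −0.12. Leaving out the 3 arrays that stood apart also gave 7 to 10 there, with a median of −0.12, and array weights gave 7 to 10 and −0.11.

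**Figure D1:**
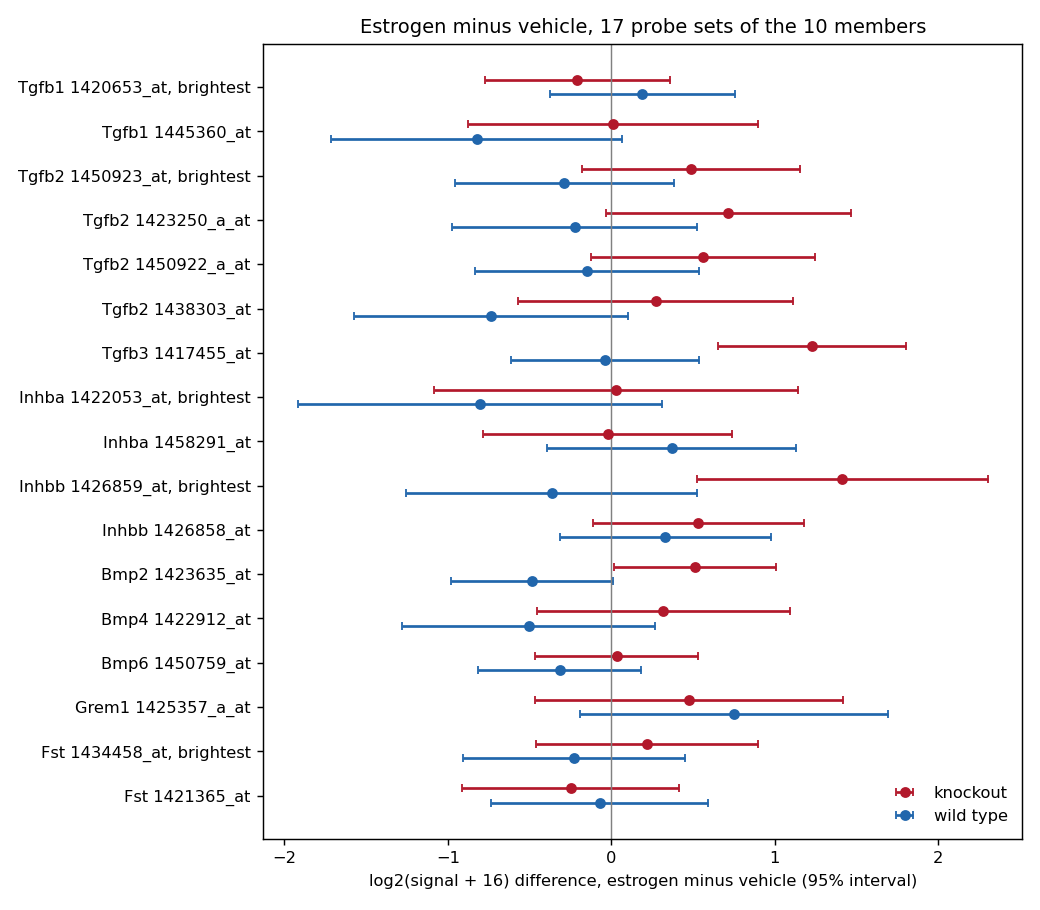
Log2 difference between estrogen and vehicle (horizontal axis, on the log2(signal + 16) scale, with 95% intervals) for each of the 17 probe sets, in knockouts (red) and wild types (blue). The knockout values lie mostly right of 0 and the wild-type values mostly left of it, and the intervals of Tgfb3, the brighter Inhbb probe set and Bmp2 in knockouts do not include 0.

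Tgfb3, a TGF-beta isoform expressed in mesenchymal tissues, had the smallest p of the members in the knockouts. Its signal on replicates 1 to 4 was 1109, 902, 677 and 389.7 in estrogen-treated knockouts, 252, 365, 294 and 289 in vehicle knockouts, 495, 468, 513 and 320.2 in estrogen-treated wild types, and 395, 649, 368 and 453 in vehicle wild types. All 4 estrogen-treated knockouts lay above all 4 vehicle knockouts, while the wild-type groups overlapped. The means were 769 ± 308 in estrogen-treated knockouts and 299.9 ± 47.4 in vehicle knockouts, and 449 ± 87.9 in estrogen-treated wild types and 466 ± 127 in vehicle wild types (SD, 4 mice each).

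In the knockouts the log2 difference of Tgfb3 was 1.23 ± 0.27 (SE; 95% interval 0.65 to 1.80), a 2.34-fold higher level, with an unadjusted p of 0.000292 and a limma adjusted p of 0.940. In the wild types it was −0.04. The difference between genotypes was 1.27 ± 0.39 (0.46 to 2.08; unadjusted p = 0.00418, adjusted p = 0.927), and the average over genotypes was 0.59 ± 0.19 (unadjusted p = 0.00663, adjusted p = 0.899). Estrogen-treated knockouts were above vehicle knockouts in both replicate sets, by 0.79 within replicates 3 and 4, compared with 1.67 within replicates 1 and 2. In replicates 3 and 4 of the estrogen-treated knockouts, muscle marker sums were 27706 and 2843, beside Tgfb3 signals of 677 and 389.7. Under vehicle the sums of these replicates were 8032 and 5489. The part of muscle in the Tgfb3 values was not tested. Leaving out 1 array at a time gave a knockout difference of 1.02 to 1.51, the lowest without estrogen-treated knockout replicate 1.

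Tgfb2, the isoform with the most probe sets, had the same direction on all 4: higher after estrogen in the knockouts, by 0.27 to 0.72, and lower in the wild types, by −0.73 to −0.15. None reached an unadjusted p of 0.05 by limma in the fit without the replicate sets. With the replicate set as a term, 1 of the 4 had 0.0259 in the knockouts (adjusted p = 0.896). For the difference between genotypes, Tgfb2 then had 0.0368 on that probe set and 0.0482 on its brightest (adjusted p = 0.608 and 0.626). On its brightest probe set the signal was 549, 398, 224 and 165 in estrogen-treated knockouts, 249, 172, 226 and 203 in vehicle knockouts, 241, 282, 176 and 217 in estrogen-treated wild types, and 302, 417, 225 and 212 in vehicle wild types. Replicates 1 and 2 of the estrogen-treated knockouts were the high ones, and replicates 3 and 4 lay among or under the vehicle knockouts. The difference in the knockouts came to −0.15 within replicates 3 and 4, compared with 1.12 within replicates 1 and 2.

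Tgfb1 encodes the TGF-beta isoform most abundant in bone matrix. The signal of its brighter probe set was 2009.6, 3181, 4542 and 4191 in estrogen-treated knockouts, 3311, 4050.4, 4067 and 3978 in vehicle knockouts, 3365, 3290.3, 5129 and 4653 in estrogen-treated wild types, and 2670.3, 2462, 5515 and 4292 in vehicle wild types. The groups overlapped in both genotypes. The log2 difference after estrogen was −0.21 (−0.77 to 0.36) in the knockouts and 0.19 (−0.38 to 0.76) in the wild types, and the lowest array was estrogen-treated knockout replicate 1. The dimmer probe set differed by 0.01 in the knockouts and by −0.82 in the wild types, where it ranged from 41.8 to 474 after estrogen, so the probe sets gave opposite signs in each genotype.

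**Figure D2:**
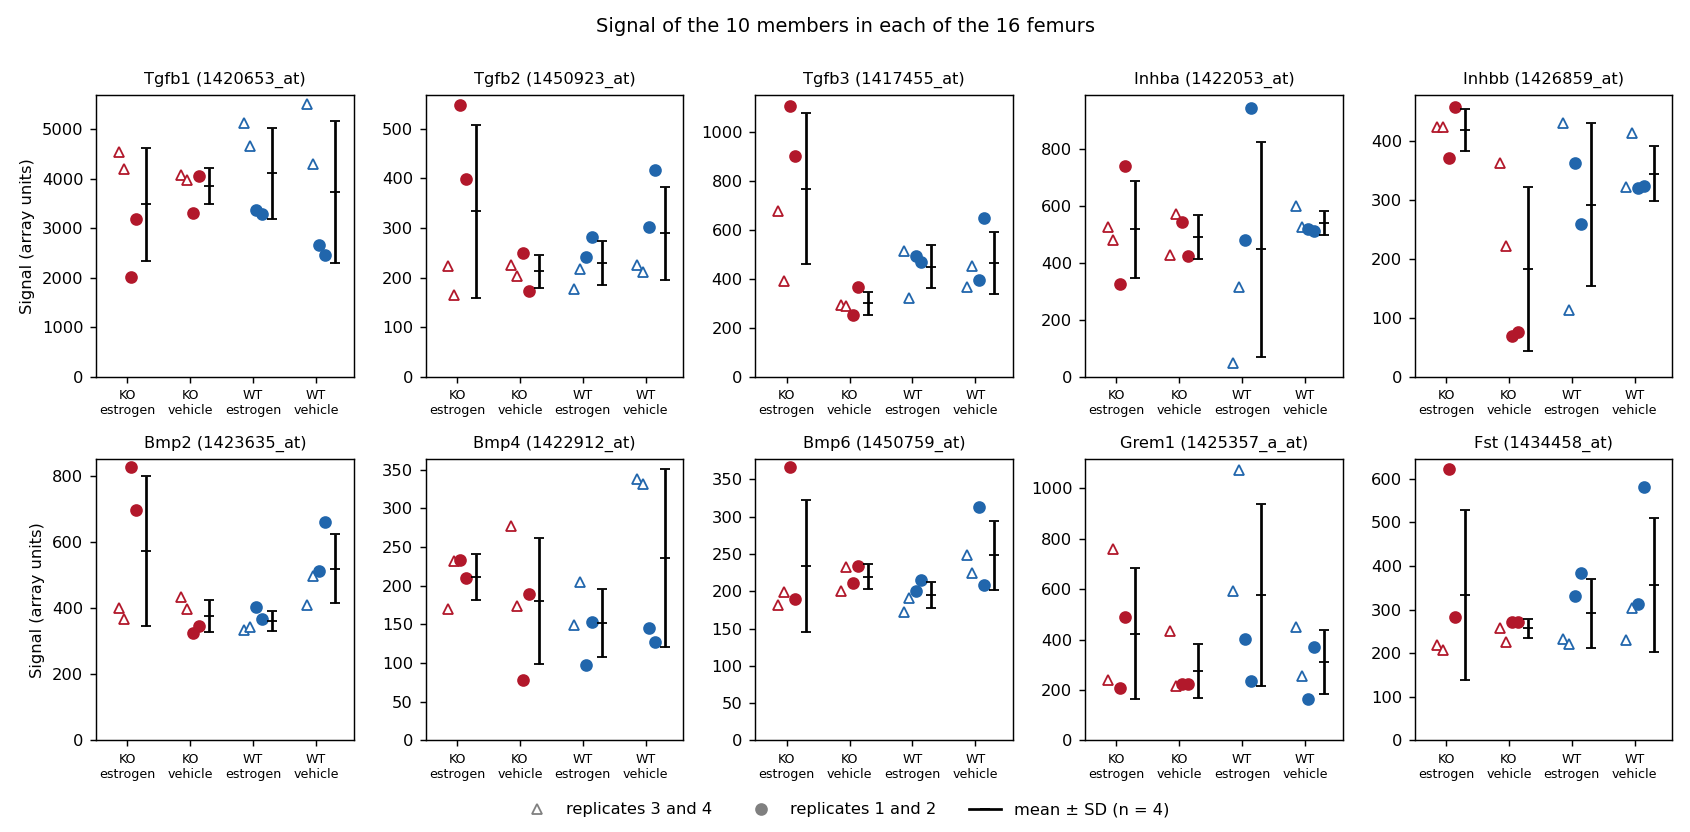
Array signal (vertical axis, array units, from 0) of the brightest probe set of each of the 10 genes in each of the 16 femurs, by group, with replicates 3 and 4 as open triangles, replicates 1 and 2 as filled circles, and the mean ± SD of 4 mice as a bar. The 4 estrogen-treated knockouts lie above the 4 vehicle knockouts for Tgfb3 and Inhbb, and for Bmp2 the high values are those of replicates 1 and 2.

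Inhbb encodes the beta B subunit of activins and inhibin B. The promoter window given by RefSeq (GRCm38.p6) for Inhbb lies at chr1:119422199-119422498 on the minus strand, and that of Tgfb1 at chr7:25686752-25687051 on the plus strand. They are printed 5′ to 3′ to show the letters searched, with matches to the GC box GGGCGG, on either strand, in capitals.
Inhbb: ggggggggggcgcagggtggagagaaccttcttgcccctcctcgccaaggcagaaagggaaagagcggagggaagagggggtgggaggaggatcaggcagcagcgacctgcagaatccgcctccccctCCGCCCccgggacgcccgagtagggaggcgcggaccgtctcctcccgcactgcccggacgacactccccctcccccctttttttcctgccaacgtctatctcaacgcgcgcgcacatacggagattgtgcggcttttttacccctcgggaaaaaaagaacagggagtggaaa
Tgfb1: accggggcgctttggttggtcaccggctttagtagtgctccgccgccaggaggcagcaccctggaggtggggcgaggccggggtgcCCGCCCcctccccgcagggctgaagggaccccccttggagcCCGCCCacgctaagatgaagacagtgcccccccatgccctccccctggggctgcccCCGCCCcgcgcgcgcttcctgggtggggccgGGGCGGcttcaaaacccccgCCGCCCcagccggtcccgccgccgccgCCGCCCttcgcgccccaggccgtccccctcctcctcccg
The GC box, a letter run that Sp1 family factors bind, occurred in 5 of the 7 members with a promoter in the table, against 35.7% of all 32851 promoters. The full estrogen response element, GGTCA and its inverted repeat with 3 bases of any kind between them, occurred in 0 of the 7, against 0.0700% of all promoters. No promoter was available for Tgfb3, Bmp2 or Fst, so these genes were not searched. The matches are letters in a window and describe no binding.

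On its brighter probe set, Inhbb had 372, 458, 425 and 424 in estrogen-treated knockouts, 68.8, 76.6, 363 and 222 in vehicle knockouts, 364, 259, 431 and 113 in estrogen-treated wild types, and 321, 323, 322 and 414 in vehicle wild types. The estrogen-treated knockouts all lay above the vehicle knockouts, whose replicates 1 and 2 were the lowest of the 16 arrays. The means were 419.5 ± 35.4 in estrogen-treated knockouts and 183 ± 139 in vehicle knockouts, and 292 ± 138 in estrogen-treated wild types and 345 ± 46.3 in vehicle wild types (SD, 4 mice each).

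The log2 difference in the knockouts was 1.41 ± 0.42 (SE; 0.52 to 2.30), a 2.66-fold higher level, with an unadjusted p of 0.00372 and an adjusted p of 1.00 by limma. In the wild types it was −0.37 (−1.25 to 0.52), and the difference between genotypes was 1.78 ± 0.60 (0.52 to 3.04; unadjusted p = 0.00827, adjusted p = 0.927). Within replicates 3 and 4 the knockout difference was 0.55 (unadjusted p = 0.301), and within replicates 1 and 2 it was 2.27. The dimmer probe set gave smaller values: 253, 338, 267 and 198 in estrogen-treated knockouts and 135, 153, 251 and 177 in vehicle knockouts, a log2 difference of 0.53 (−0.11 to 1.18), and 0.33 in the wild types. Both probe sets were higher after estrogen in the knockouts, and in the wild types their signs differed.

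Inhba encodes the beta A subunit of activin A. The signal of its brighter probe set was 325, 737, 526 and 479 in estrogen-treated knockouts, 542, 424, 425 and 571 in vehicle knockouts, 479.9, 943, 47.8 and 314 in estrogen-treated wild types, and 516, 512, 600.1 and 524 in vehicle wild types. Both the highest and the lowest of the 16 arrays were estrogen-treated wild types, and all groups overlapped. The log2 difference was 0.03 (−1.08 to 1.14) in the knockouts and −0.81 (−1.92 to 0.31) in the wild types, with −1.99 within replicates 3 and 4, compared with 0.38 within replicates 1 and 2. The other Inhba probe set stayed between 5.14 and 56.6 on all arrays.

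Bmp2, a BMP that induces osteoblast differentiation and bone formation, had 826, 697, 399.7 and 365 in estrogen-treated knockouts, 326, 346, 435 and 398 in vehicle knockouts, 402, 366, 335 and 344 in estrogen-treated wild types, and 512, 661, 408 and 496 in vehicle wild types. All estrogen-treated wild types lay below all vehicle wild types, although 402 and 408 nearly meet. In the knockouts replicates 1 and 2 after estrogen were high and replicates 3 and 4 lay within the vehicle range.

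Bmp2 differed by 0.51 ± 0.24 (0.01 to 1.01; unadjusted p = 0.0444, adjusted p = 1.00) in the knockouts and by −0.49 (−0.98 to 0.01; unadjusted p = 0.0541, or 0.0345 with the replicate set as a term, where the adjusted p was 0.545) in the wild types. The difference between genotypes was 1.00 ± 0.33 (0.30 to 1.70; unadjusted p = 0.00801, adjusted p = 0.927). The knockout value had the opposite sign within replicates 3 and 4, at −0.12, and was 1.14 within replicates 1 and 2. The wild-type value was negative in both, at −0.39 and −0.58. Without estrogen-treated knockout replicate 1 the knockout value was 0.31 (unadjusted p = 0.186).

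**Figure D3:**
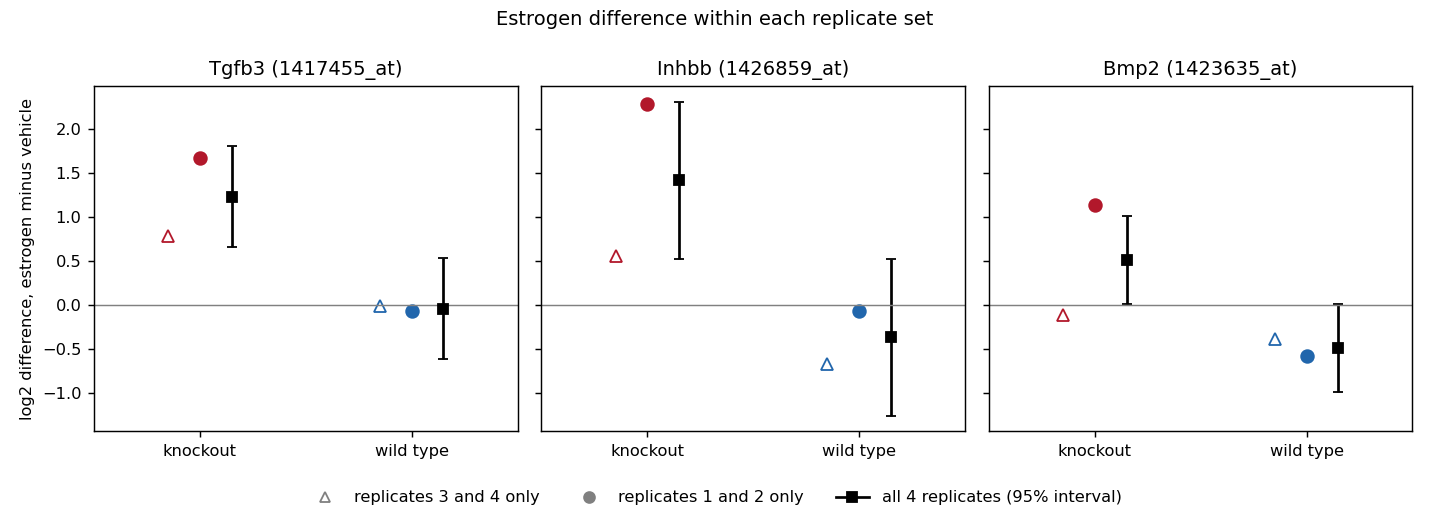
Log2 difference between estrogen and vehicle (vertical axis) for Tgfb3, Inhbb and Bmp2 in knockouts and wild types, from replicates 3 and 4 alone (open triangles), from replicates 1 and 2 alone (filled circles) and from all 4 replicates (squares with 95% intervals). In the knockouts the filled circles lie above the open triangles for each gene, and for Bmp2 the triangle lies under 0.

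Bmp4, a BMP that acts in skeletal development and in bone repair, had 233, 210.5, 169 and 233 in estrogen-treated knockouts, 78.3, 189.9, 277 and 174 in vehicle knockouts, 97.8, 154, 149 and 205 in estrogen-treated wild types, and 145, 128, 338 and 332 in vehicle wild types. Groups overlapped in both genotypes, and the log2 differences were 0.32 (−0.46 to 1.09) in the knockouts and −0.50 (−1.28 to 0.27) in the wild types. Bmp6, which stimulates hepcidin in the liver and is also made in bone, had 367, 189, 182 and 199 in estrogen-treated knockouts, 211, 234, 201 and 233 in vehicle knockouts, 199.8, 215, 173 and 191 in estrogen-treated wild types, and 313, 208, 248 and 224 in vehicle wild types. Apart from 367 in estrogen-treated knockout replicate 1 and 313 in vehicle wild-type replicate 1, the Bmp6 signals lay close together. Its log2 differences were 0.03 (−0.46 to 0.53) in the knockouts and −0.32 (−0.81 to 0.18) in the wild types.

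Grem1 encodes the BMP antagonist gremlin 1. Its RefSeq window (GRCm38.p6) lies at chr2:113758599-113758898 on the minus strand. Among the 7 members in the table it was the single one with an AGGTCA run, the estrogen response half-site, which 16.3% of all promoters hold on either strand. The capitals mark that run, here on the other strand, and the GC boxes, which overlap no other match.
Grem1: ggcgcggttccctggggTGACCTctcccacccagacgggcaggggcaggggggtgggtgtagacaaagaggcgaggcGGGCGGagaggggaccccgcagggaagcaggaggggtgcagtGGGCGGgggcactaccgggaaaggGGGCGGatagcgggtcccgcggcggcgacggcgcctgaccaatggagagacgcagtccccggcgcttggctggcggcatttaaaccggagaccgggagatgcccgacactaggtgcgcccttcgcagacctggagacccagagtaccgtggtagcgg
The half-site and the full element share the letters GGTCA, and this window held no match to the full element.

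Grem1 had 207, 491, 238 and 761 in estrogen-treated knockouts, 223, 226, 434 and 214 in vehicle knockouts, 402, 237, 594 and 1071 in estrogen-treated wild types, and 163, 371, 451 and 256 in vehicle wild types. Single femurs were high in each group, and the groups overlapped in both genotypes. Its log2 difference was positive in both genotypes, 0.47 (−0.47 to 1.42) in the knockouts and 0.75 (−0.19 to 1.69) in the wild types, with an average of 0.61 (−0.06 to 1.28) and an unadjusted p of 0.0699.

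Fst encodes follistatin, which binds activins tightly. Its brighter probe set had 621, 283, 219 and 208 in estrogen-treated knockouts, 272, 271, 259 and 225 in vehicle knockouts, 331, 385, 232 and 221 in estrogen-treated wild types, and 312, 581, 230.0 and 304 in vehicle wild types. The 621 came from estrogen-treated knockout replicate 1, and all groups overlapped. The log2 differences were 0.22 (−0.46 to 0.90) in the knockouts and −0.23 (−0.91 to 0.45) in the wild types, and on the dimmer probe set −0.25 and −0.07.

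Knockouts were then compared with wild types under each treatment. These comparisons use the same arrays as the estrogen comparisons above, so a high or low group enters both. None of the 17 passed an adjusted p of 0.05 by limma under vehicle, after estrogen or on average, and 0% of all probe sets did. Under vehicle 2 of the 17 had an unadjusted p under 0.05, both lower in knockouts, against 3.58% of all probe sets (1.86% lower). After estrogen 2 did, both higher in knockouts, against 4.92% (2.69% higher), and in the average over treatments 0, against 3.24%. The vehicle count was 0 without vehicle knockout replicate 1, 3 without vehicle wild-type replicate 3 and 1 without any 1 of 8 other arrays (vehicle knockout replicates 2, 3 and 4, estrogen-treated knockout replicate 3, estrogen-treated wild-type replicates 1 and 2, and vehicle wild-type replicates 2 and 4), and 1 with an added value of 64 or quantile normalization. Over all 45037 probe sets, 1240 passed without vehicle knockout replicate 1 and 2094 without vehicle wild-type replicate 3, against 1614 with all arrays.

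Under vehicle, 14 of the 17 were lower in knockouts and 3 higher, with a median log2 difference of −0.23. The split was 13 to 4 without vehicle wild-type replicate 3, with a median of −0.12. It was 16 to 1 within replicates 3 and 4 and 14 to 3 with quantile normalization, both with a median of −0.15. Tgfb3 was lower in every vehicle knockout (252 to 365) than in every vehicle wild type (368 to 649), although 365 and 368 nearly meet. It was the single member without overlap, against 3.20% of all probe sets (1.65% lower). Its log2 difference was −0.59 ± 0.27 (unadjusted p = 0.0451, adjusted p = 0.993), with −0.47 within replicates 3 and 4, compared with −0.71 within replicates 1 and 2. Without vehicle wild-type replicate 2, an array that stood apart, the Tgfb3 difference was −0.42 (unadjusted p = 0.150). Its unadjusted p was over 0.05 without any 1 of 8 single arrays. The brighter Inhbb probe set differed by −1.14 ± 0.42 (unadjusted p = 0.0151, adjusted p = 0.993), with −0.34 within replicates 3 and 4, compared with −1.93 within replicates 1 and 2, while the dimmer one differed by −0.21. All 8 muscle markers and all 6 adipocyte markers were lower in vehicle knockouts too, with medians of −1.46 and −1.02, and their part in the differences was not tested.

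After estrogen, 12 of the 17 were higher in knockouts and 5 lower, with a median of 0.46. Tgfb3 differed by 0.68 ± 0.27 (unadjusted p = 0.0228) and Bmp2 by 0.56 ± 0.24 (unadjusted p = 0.0292), both with an adjusted p of 1.00. No member separated the groups, against 2.09% of all probe sets. The count of 2 was 0 without estrogen-treated knockout replicate 1 or 2 or with array weights, 1 without estrogen-treated wild-type replicate 3 or the 3 arrays that stood apart, and 6 without estrogen-treated knockout replicate 4. Without that replicate 3118 of all 45037 probe sets passed, against 2214 with all arrays and 1983 with array weights. The median of the 17 was 0.22 without estrogen-treated knockout replicate 1, 0.24 and 0.28 without estrogen-treated wild-type replicates 2 and 3, 0.08 without the 3 arrays, and 0.16 with array weights. Without estrogen-treated knockout replicate 1 the values were 0.48 for Tgfb3 and 0.36 for Bmp2, with unadjusted p of 0.0969 and 0.128. Within replicates 3 and 4 the split of the 17 was 8 higher to 9 lower, with a median of −0.02, and within replicates 1 and 2 it was 14 to 3, with a median of 0.68.

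The mice numbered 3 and 4 were then set against the mice numbered 1 and 2, within groups. Of the 17 probe sets, 1 rose and 1 fell at an adjusted p of 0.05 by limma, in a comparison that 11.2% of all probe sets passed, 6.41% higher and 4.76% lower, so 2 of 17 is about the rate of the whole array. At an unadjusted p under 0.05 there were 8 members, 4 higher and 4 lower in replicates 3 and 4, against 26.1% (15.3% higher and 10.8% lower). What the numbers stand for is not given in the labels, and no member separated the sets without overlap, against 2.21% of all probe sets.

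Tgfb1 rose in replicates 3 and 4. On its brighter probe set the signal was 3978 to 5515 in replicates 3 and 4, with a median of 4417, against 2009.6 to 4050.4 in replicates 1 and 2, with a median of 3236. The sets overlapped by a single pair of values. The log2 difference was 0.60 ± 0.12 (0.34 to 0.86), a 1.51-fold higher level, with an adjusted p of 0.00485 by limma, and adjusted p-values of 0.00229 to 0.0323 over the alternatives tried. The dimmer probe set was 0.47 higher (adjusted p = 0.292). Osteoclast markers were higher in the same mice, all 8 of them and 7 past the test, with a median of 1.13 and summed signals of 40540 to 61976 in replicates 3 and 4, against 19241 to 37907 in replicates 1 and 2.

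Fst fell in replicates 3 and 4. On its brighter probe set it was 208 to 304 there, with a median of 228, and 271 to 621 in replicates 1 and 2, with a median of 321, a log2 difference of −0.59 ± 0.18 (−0.97 to −0.22) and an adjusted p of 0.0406. The call was lost when the 3 arrays that stood apart were left out, where the difference was −0.30 (adjusted p = 0.234), and without any 1 of 10 single arrays: vehicle wild-type replicates 2, 3 and 4, estrogen-treated wild-type replicates 2, 3 and 4, vehicle knockout replicate 4, and estrogen-treated knockout replicates 1, 3 and 4, with differences of −0.62 to −0.46. The dimmer Fst probe set was 0.23 higher, so the probe sets had opposite signs. Muscle markers fell in replicates 3 and 4, 8 of 8 past the test with a median of −4.17, and adipocyte markers did so for 4 of 6, with a median of −1.42 and sums of 11436 to 21536 in replicates 3 and 4, against 21950 to 85337 in replicates 1 and 2. The part of these tissues in the values of Tgfb1 and Fst was not tested.

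The other 6 probe sets past an unadjusted p of 0.05 were not called. Tgfb2 was lower on its 2 brightest probe sets, by −0.55 and −0.60 (adjusted p = 0.0569 and 0.0710), and Tgfb3 by −0.38. Grem1 was higher by 0.65 ± 0.27, at 214 to 1071 in replicates 3 and 4, against 163 to 491 in replicates 1 and 2. Bmp4 was higher by 0.57 ± 0.22 and the dimmer Inhbb probe set by 0.46 ± 0.19. The antagonists lay on opposite sides, Grem1 higher and the brighter Fst probe set lower. So did the TGF-betas, with Tgfb1 higher and Tgfb3 and 3 of the 4 Tgfb2 probe sets lower.

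**Figure D4:**
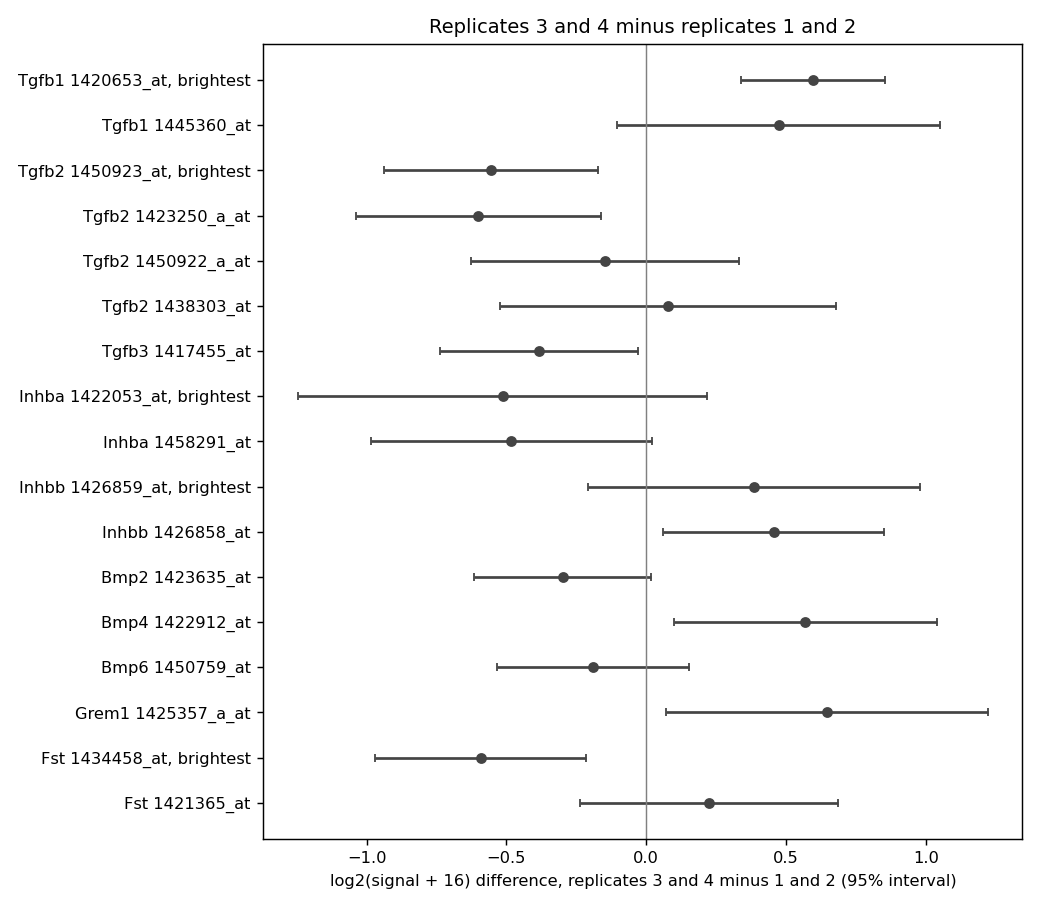
Log2 difference between replicates 3 and 4 and replicates 1 and 2, within groups (horizontal axis, log2(signal + 16) scale, with 95% intervals), for each of the 17 probe sets. The brighter probe set of Tgfb1 lies right of 0 at 0.60 and that of Fst left of it at −0.59, and these are the members past the adjusted test.

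Genes with a like pattern across femurs were sought for Tgfb3, Inhbb and Bmp2, as the lower of the Pearson correlations within the 8 arrays of each replicate set, among 19236 probe sets. The arrays share tissue composition and scaling, so the values describe these femurs and carry no test. For Tgfb3 they were Csf1, the macrophage colony-stimulating factor that osteoclast precursors need, at 0.87, the elastin crosslinking enzyme gene Loxl1 at 0.83, and Insig2, a regulator of cholesterol synthesis, at 0.83. For Bmp2 they were Sulf1, which edits heparan sulfate, at 0.93, the collagen-binding proteoglycan gene Fmod at 0.90, and the transcription factor gene Nfix at 0.90. For Inhbb they were Fam118a at 0.84, Rccd1 at 0.83 and Cep83 at 0.79.

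Other genes of the pathway were taken from a list of 63, of which 55 had a probe set, 1 per gene being used. None passed an adjusted p of 0.05 by limma in any of the 7 group comparisons. At an unadjusted p under 0.05, estrogen gave 4 in the knockouts (3 higher), against 3.73% of all probe sets, and 13 in the wild types (4 higher, 9 lower), against 6.14% (2.58% higher, 3.57% lower). These shares include dim and repeated probe sets. With 1 probe set per gene and the lowest 30% of genes left out, 622 of 12735 passed in the knockouts and 1102 of 12735 in the wild types. The median log2 difference of the 55 was 0.10 in the knockouts and −0.19 in the wild types, beside 0.02 and −0.02 over all probe sets. Other ligands (9 genes) had medians of 0.07 and −0.45, and receptors (12 genes) of 0.19 and −0.21. Target genes (9 genes) had medians of 0.04 and 0.23, and Smads (8 genes) of 0.00 and −0.18. Other antagonists (8 genes) had −0.12 and −0.08, and latency and activation genes (9 genes) 0.25 and −0.10.

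Among receptors, Tgfbr3, the betaglycan coreceptor that presents TGF-beta2, was higher after estrogen in both genotypes, at 1991 ± 766 in estrogen-treated knockouts and 1202 ± 318 in vehicle knockouts, and at 2103 ± 777 in estrogen-treated wild types and 1274 ± 260.1 in vehicle wild types. Its average difference was 0.67 ± 0.20 (unadjusted p = 0.00365, adjusted p = 0.758). Acvr1b, an activin type I receptor, averaged 0.44 ± 0.16 (unadjusted p = 0.0142). None of the BMP receptors passed for the difference between genotypes: it was 0.68 for Bmpr1a (unadjusted p = 0.0151) and 0.77 for Bmpr2 (unadjusted p = 0.0222), with an adjusted p of 0.927 for both, and −0.18 for Bmpr1b (unadjusted p = 0.783).

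Among wild types the follistatin-like gene Fstl1 had 1622 ± 523 after estrogen and 3116 ± 627 under vehicle, without overlap, a log2 difference of −0.97 ± 0.29 (unadjusted p = 0.00379, adjusted p = 0.535). Id3, a direct BMP target, had 1065 ± 154 after estrogen and 2305 ± 1050 under vehicle in the wild types, also without overlap, a difference of −0.99 ± 0.31 (adjusted p = 0.567). The ligand gene Gdf10 differed by −1.17 ± 0.37 there (adjusted p = 0.575), Acvr1, a BMP type I receptor, by −0.76, and Smad5, which carries BMP signals, by −0.62. Id2, another target, differed by 0.46 in the other direction. Of the 9 target genes with a probe set, 4 had an unadjusted limma p under 0.05 in the wild types, 2 higher and 2 lower after estrogen.

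In the knockouts the TGF-beta target Ccn2 had 9267 ± 5346 after estrogen and 3941 ± 763 under vehicle, a log2 difference of 1.04 ± 0.37 (unadjusted p = 0.0122, adjusted p = 1.00). Tgfbi, a matrix protein named for its induction by TGF-beta, averaged 0.47 over genotypes (unadjusted p = 0.0239). Pmepa1, a TGF-beta target that dampens the signal, differed between genotypes by 0.78, and Ltbp2, a latent TGF-beta binding protein gene, by 1.06 (adjusted p = 0.927 for both). Cer1, an antagonist gene with mean signals of 21.1 to 73.1 in the groups, had 33.3 in estrogen-treated knockouts and 73.1 in vehicle knockouts (unadjusted p = 0.0214), on signals where the added 16 weighs most.

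**Figure D5:**
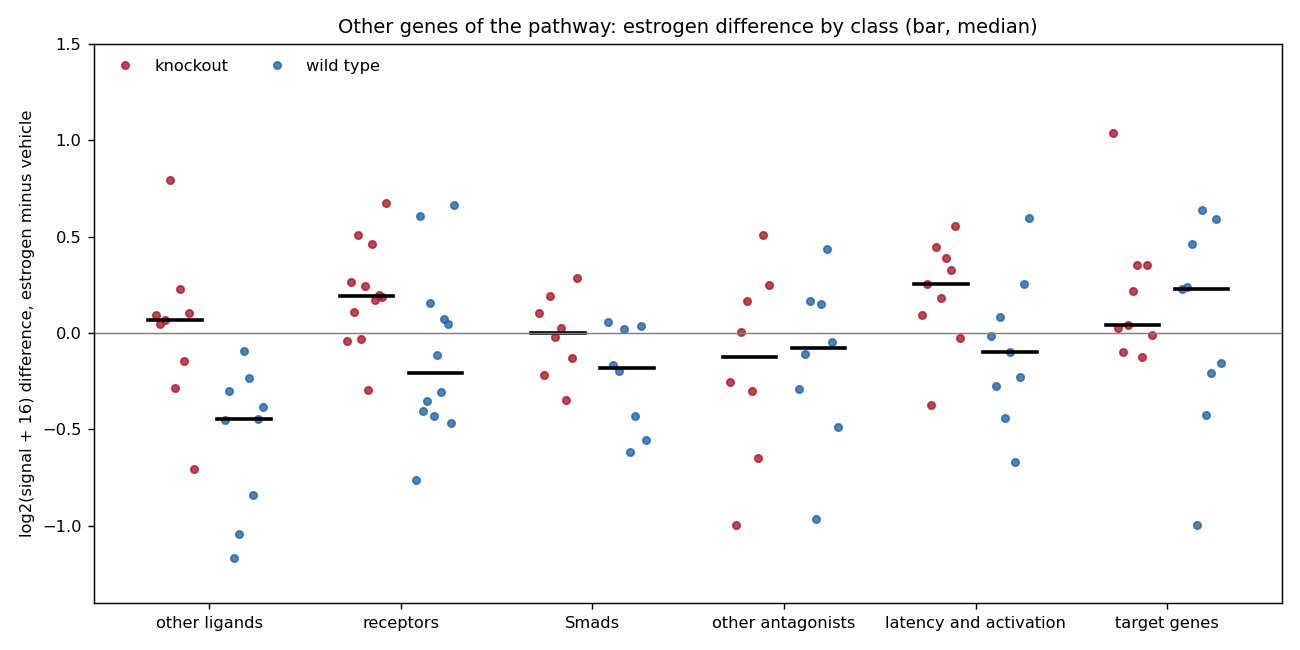
Log2 difference between estrogen and vehicle (vertical axis, log2(signal + 16) scale) for the 55 other genes of the pathway by class, in knockouts (red) and wild types (blue), 1 point per gene, with the class median as a bar. The medians of other ligands, receptors and latency genes lie above 0 in the knockouts and below 0 in the wild types.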

How the data were processed

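Expression was measured on Affymetrix mouse arrays, 1 per mouse, per the labels. The deposited signals are intensities on a linear scale, 1 per probe set; the submitters' processing notes name GCOS, with no version or background method given there. They were used as deposited, since the 2% trimmed mean was equal on all arrays. Of 45101 probe sets, 64 controls were left out; 34945 had 1 gene symbol in the platform annotation, 932 several and 9160 none here.

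Signals were taken as log2(signal + 16), so folds understate the change of low genes. Limma 3.58.1 in R 4.3.3 was fitted over all 45037 probe sets with 1 mean per group, 12 residual degrees of freedom and a variance trend, and two-sided p-values were adjusted by Benjamini-Hochberg with a threshold of 0.05; no adjustment was made over the members alone. The replicate sets were compared with group and set as terms. Each gene is represented by its brightest probe set, and tests are quoted for members with an unadjusted p under 0.05, and for at most 2 pathway genes per class and estrogen comparison. Members, gene lists and tests were chosen with earlier results of these data known. Alternatives were a filter on the lowest 30%, added values of 1 and 64, quantile normalization, 1 probe set per gene, array weights, a replicate block, the replicate set as a term, single replicate sets, and leaving out arrays. The fit was tested on simulated data. Promoters were taken from RefSeq (GRCm38.p6), which matched 7 of the 10 genes.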

Additional observations from a re-analysis of the deposited data

Results flagged for a closer look

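In 68 sets of 4 arrays (17 probe sets in 4 groups), 6 single arrays lay apart from the other 3 by Dixon's criterion for 4 values; chance gives about 5% of groups. In estrogen-treated knockouts, replicate 1 had the highest Bmp6 signal, 367 against 182 to 199 in the other 3, and the highest signal of the dimmer Inhba probe set, 56.6 against 17.6 to 21.1. That array also had a high spike-in signal. In vehicle knockouts, the brighter Tgfb1 probe set was lowest in replicate 1, at 3311 against 3978 to 4067, and Grem1 was highest in replicate 3, at 434 against 214 to 226. In vehicle wild types, the brighter Inhba probe set was highest in replicate 3, at 600.1 against 512 to 524, and the brighter Inhbb probe set was highest in replicate 4, at 414 against 321 to 323.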

How the results depend on the processing

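No member was called in any of the 7 group comparisons under any of the alternatives tried. Over all probe sets, the calls for estrogen in knockouts were 0, and 2 with array weights, 1 when the 3 arrays that stood apart were left out and 0 to 1 with 1 array left out. In wild types they were 0, and 3 with the set term. For the average over genotypes they were 1, and 2 with 1 probe set per gene, 3 with array weights, 2 with the set term, 0 within replicates 1 and 2, 3 within replicates 3 and 4, 4 without the 3 arrays, and 1 to 2 with 1 array left out. The difference between genotypes had 0 calls, and 4 within replicates 1 and 2. Knockout against wild type on average had 0, and 1 with array weights, 1 with the set term and 0 to 1 with 1 array left out. Replicates 3 and 4 against 1 and 2 had 5030 of 45037, 2487 without the 3 arrays and 3157 to 5346 with 1 array left out. With 1 probe set per gene there were 2364 of 12735, and with the filter 5501 of 31526, both a larger share of fewer features. Member calls there were 2, and 4 with the filter, 4 with quantile normalization, 1 without the 3 arrays and 1 to 3 with 1 array left out. The filter and quantile normalization added both Tgfb2 probe sets. Bmp2 in knockouts turned to −0.12 within replicates 3 and 4. Some of these settings used fewer features or arrays, and the cause of the changes was not tested.

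Same-numbered arrays correlated no more closely than other arrays of the same replicate set, with either choice of probe sets. Deviations of same-numbered arrays correlated at 0.0389 to 0.336 over all probe sets, with 20 of 24 pairs over 0.1, and at 0.190 to 0.603 with 1 probe set per gene and the lowest 30% left out, with 24 of 24. Arrays of the same set but another number correlated alike, with medians of 0.195 and 0.369 against 0.156 and 0.324, so no pairing by number beyond the set was seen. Between the sets the medians were −0.177 and −0.355. With the number as a block, the average over genotypes had 2 calls, and the block changed no other count of calls by over 1.5 times.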

Other observations

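Marker lists of other cells were read on the same arrays, with 0 genes passing the test by limma in the estrogen comparisons of either genotype. All 8 cartilage markers were lower after estrogen in wild types, with a median log2 difference of −0.57, and 7 of 8 were lower in knockouts, with a median of −0.50. All 6 neutrophil lineage markers were higher in wild types, with a median of 0.44, and 5 of 6 in knockouts, with a median of 0.11. B lymphocyte markers were lower for 4 of 5 in knockouts, with a median of −0.64, and for 5 of 5 in wild types, with a median of −0.55. Medians in knockouts and wild types were 0.10 and −0.01 for 8 endothelium markers, −0.08 and −0.14 for 6 megakaryocyte and platelet markers, and −0.06 and 0.00 for 4 erythroid markers. Osteoclast markers had medians of 0.17 and 0.02, and osteoblast and osteocyte markers of 0.04 and 0.03. At an unadjusted p under 0.05, the lists held 0 or 1 gene in each genotype, apart from 3 neutrophil markers in wild types.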
